A study of Homo sapiens with 12 samples.

Results

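INA and its relatives NEFL, NEFM, NEFH, PRPH and NES are 6 of the 61163 genes counted in RNA of HEK293T cells with and without HNRNPUL1, and they were taken by symbol from both count tables. INA was chosen by its counts, high in wild-type cells and low in the knockout, so its knockout values are given as a description and are not tested. The others were taken as its relatives. HEK293T is an established human embryonic kidney line that carries the SV40 large T antigen. HEK WT is the wild-type line, and HEK UL1 KO is the same line after CRISPR-Cas9 editing of HNRNPUL1 with guides to the second and the third exons. How many clones HEK UL1 KO comes from is not given in the sources used here. The sources used here name no treatment of these cells. Each line was split into a nucleolar (NO) and a cytoplasmic-nuclear (CN) RNA fraction with 3 replicates, which gave 12 libraries of total RNA without rRNA depletion.

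Intermediate filaments are rope-like cytoskeletal polymers. In mature neurons they are built from the neurofilament triplet, NEFL, NEFM and NEFH (the light, medium and heavy chain), together with alpha-internexin (INA) in the central nervous system and peripherin (PRPH) in peripheral neurons. Nestin (NES) is the large filament protein of neural progenitors and forms filaments together with partners such as vimentin. The chains fill and widen axons, and neurofilament light chain that leaks from damaged axons is measured in blood as a sign of injury. HEK293 lines are known to express neurofilament genes although they come from kidney.

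Libraries held 37141666 to 83019079 counts in NO and 54349399 to 104040073 in CN. Levels are given as CPM, counts scaled by edgeR to the size of each library with TMM factors set over the 12 libraries. Fold changes come from the fit of each comparison, which scales its own 6 libraries. Replicate 3 of HEK WT in NO stood apart, with a TMM factor of 1.71, and member values that it moved by over 1.5 times or across the threshold are also given without it. Without it, 9133 genes were called between the genotypes in NO, against 327 with it. HNRNPUL1 itself was at 22.0 ± 2.25 CPM (SD, n = 3) in CN of HEK WT and 5.85 ± 0.0402 in HEK UL1 KO, and at 11.9 ± 4.34 and 3.13 ± 0.292 in NO, so it was lower in every library labelled as knockout but still counted. Of 11 kidney lineage genes tested in CN, 3 rose and 3 fell, where 15.6% of all genes rose and 22.3% fell, among them EYA1, which fell by 1.79 on the log2 scale, and PAX2, which rose by 0.76. In NO, edgeR called 0 of 12, beside 0.939% of all genes. At an unadjusted p under 0.05 there were 8, beside 16%, and DESeq2 called 1 (EYA1), beside 3.15%. Without replicate 3 of HEK WT, 4 rose and 4 fell, beside 9.87% of all genes higher and 15.3% lower.

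INA lies on chromosome 10 of GRCh38 from 103277138 to 103290346 on the plus strand, with 3 exons and a transcript of 3251 bases in GENCODE release 44. NEFH is on chromosome 22 from 29480218 to 29491390 (plus strand, 4 exons), PRPH on chromosome 12 from 49295147 to 49298686 (plus strand, 9 exons) and NES on chromosome 1 from 156668763 to 156677407 (minus strand, 4 exons). The start regions of INA, the member that was low in HEK UL1 KO, and of NES and PRPH, the members that were higher there, are printed below from RefSeq (GRCh38.p14), from 250 bases before to 50 bases after the start and with every CpG in capitals.
INA (chr10:103276888-103277187, plus strand): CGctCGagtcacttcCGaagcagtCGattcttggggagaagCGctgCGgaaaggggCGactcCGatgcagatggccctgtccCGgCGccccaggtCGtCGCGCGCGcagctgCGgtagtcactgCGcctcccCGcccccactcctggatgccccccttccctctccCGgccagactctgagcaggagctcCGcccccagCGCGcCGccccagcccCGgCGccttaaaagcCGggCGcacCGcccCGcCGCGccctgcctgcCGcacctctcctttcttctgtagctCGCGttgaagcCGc
NES (chr1:156677358-156677657, minus strand): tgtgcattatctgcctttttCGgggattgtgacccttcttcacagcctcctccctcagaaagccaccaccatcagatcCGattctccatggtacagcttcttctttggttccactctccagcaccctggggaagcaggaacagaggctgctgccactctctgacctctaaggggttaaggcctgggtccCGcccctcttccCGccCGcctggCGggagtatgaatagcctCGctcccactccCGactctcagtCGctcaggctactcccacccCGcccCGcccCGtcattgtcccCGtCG
PRPH (chr12:49294897-49295196, plus strand): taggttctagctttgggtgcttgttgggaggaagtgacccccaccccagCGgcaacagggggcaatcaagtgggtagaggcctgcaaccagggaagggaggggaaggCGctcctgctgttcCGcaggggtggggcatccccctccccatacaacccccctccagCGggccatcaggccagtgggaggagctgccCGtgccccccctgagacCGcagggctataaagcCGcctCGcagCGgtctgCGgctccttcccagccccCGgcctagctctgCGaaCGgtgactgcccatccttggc

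The 3 start regions differed in CpG content. That of INA held 35 CpG and 71.3% G or C, and 19.0% of 15843 promoters of protein-coding genes of the same length held at least as many. NES held 14 CpG and PRPH 13, against a median of 22 (quartiles 8 and 32), so that 67.0 and 68.5% of promoters held at least as many as each of them. On both strands together, the GC box GGGCGG was found 4 times at INA, 4 times at NES and 0 times at PRPH, and 58.5% of all promoters held it. The TATA box letters TATAAA were found once, at PRPH, and 9.63% of all promoters held them. CCAAT, which 36.4% of promoters held, was at none of the 3. These are matches of letters on the reference sequence, and the sequence of the cells was not read.

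INA had the largest difference of the 6 genes between HEK WT and HEK UL1 KO in both fractions. In CN of HEK WT its counts were 256, 189 and 254 in replicates 1 to 3, or 3.89, 2.86 and 4.26 CPM. In CN of HEK UL1 KO they were 9, 8 and 7, or 0.151, 0.131 and 0.142 CPM. The groups did not overlap, which held for 52.8% of all genes tested in CN. The KO libraries lay close together, but at 7 to 9 counts their spread is no measure of precision. The means were 3.67 ± 0.726 CPM (SD, n = 3) and 0.141 ± 0.00992. The fit of the CN libraries, with its own scaling, gave a 24.2-fold lower level in HEK UL1 KO (log2 fold change -4.60). Of the 27234 genes tested in CN, 23 had a lower fold change. Whether fewer cells held INA RNA or each cell held less cannot be told apart in bulk RNA.

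In NO, INA had 107, 91 and 98 counts in HEK WT, or 2.11, 2.12 and 1.35 CPM. In NO of HEK UL1 KO it had 34, 12 and 9, or 0.260, 0.217 and 0.175 CPM. All HEK WT libraries were again above all HEK UL1 KO libraries, and 20% of all genes tested in NO did not overlap. The means were 1.86 ± 0.443 and 0.217 ± 0.0426 CPM (SD, n = 3 each). The fit of the NO libraries gave an 8.70-fold lower level in HEK UL1 KO (log2 fold change -3.12), and 19 of 34836 genes tested had a lower fold change. Without replicate 3 of HEK WT the log2 fold change was -3.34. The 6 libraries of HEK UL1 KO each held between 7 and 34 INA counts. Of 10 listed markers of other cell types, GFAP (0.148 CPM) and CD68 (0.128) lay at a like level in CN of HEK UL1 KO. All others of that list lay higher there, from DCN at 0.228 to MBP at 1.74, with PTPRC at 0.394. INA counts this low were not told apart from background.

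The order of the INA levels was CN of HEK WT, NO of HEK WT, NO of HEK UL1 KO and CN of HEK UL1 KO. Between the fractions of HEK WT, a contrast the choice of INA did not use, INA was lower in NO by 0.73 on the log2 scale (95% interval -1.24 to -0.22, edgeR adjusted p = 0.022). Of all genes with 100 to 1000 counts, 38.8% were lower in NO in this contrast, with a median of -0.40. For INA between the fractions of HEK UL1 KO, NO minus CN was 0.64 (interval -0.083 to 1.36, adjusted p = 0.0966), although the 3 NO libraries were all above the 3 CN libraries. With total counts it was 1.41 (adjusted p = 0.00321), a scaling under which the median of all genes in this contrast was 0.79 in place of 0.032. Such separation was common, in 70.3% of genes tested in HEK WT and 78% in HEK UL1 KO. INA had under 20 counts per library on average in HEK UL1 KO. With TMM, genes at that level had a median NO minus CN of 1.39 there, with 63.3% higher in NO and 5.9% lower. The step between the fractions of HEK WT lost its call with total counts in place of TMM (adjusted p = 0.333), with at least 10 counts in every library (0.0795) and under a replicate block (0.0747), and also without replicate 1 (0.0634) or replicate 3 (0.0653) of HEK WT in CN.

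**Figure D1:**
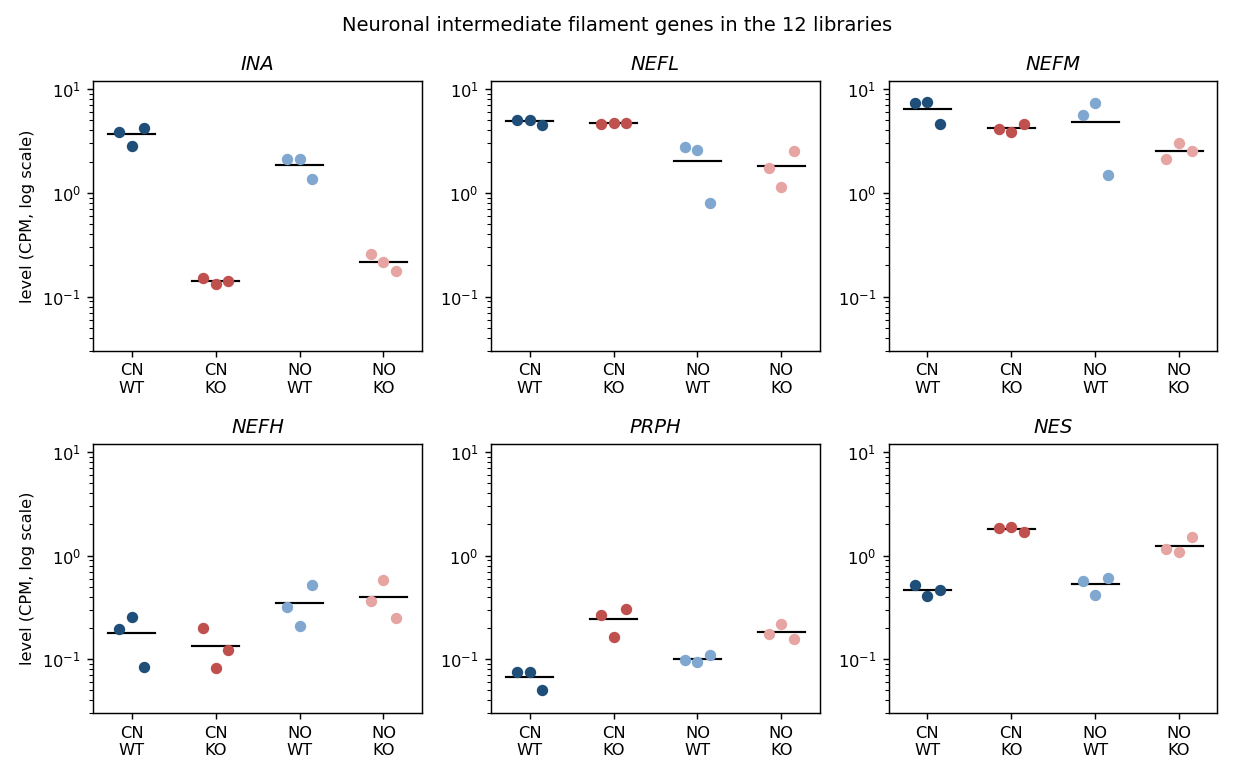
Level of each gene in the 12 libraries, in CPM on a log axis, by fraction (CN, NO) and genotype (WT, KO). Points are libraries and bars are group means of 3. INA falls from between 2.86 and 4.26 CPM in CN of HEK WT to between 0.131 and 0.151 in HEK UL1 KO, while NEFL stays between 4.56 and 5.10 across both genotypes in CN and NES rises.

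Among the other 5 genes, 3 changed in CN of HEK UL1 KO. NES and PRPH rose and NEFM fell, while NEFL and NEFH did not pass the test. Over all genes tested in CN, 37.9% were called, 15.6% higher and 22.3% lower, so that a call in this fraction was common. In NO, 0 of the 5 passed in edgeR's test, where 0.939% of all genes did (0.365% higher and 0.574% lower). At an unadjusted p under 0.05, 2 of the 5 did (NES and NEFM), beside 16% of all genes, and DESeq2 called 1 (NES), beside 3.15%.

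NEFL, the light chain on which neurofilament assembly depends, is coded beside NEFM on chromosome 8, 31862 bases away on the other strand, and did not differ in CN beyond its spread. Its counts were 332, 337 and 272 in HEK WT (5.04, 5.10 and 4.56 CPM) and 276, 289 and 234 in HEK UL1 KO (4.62, 4.73 and 4.75 CPM). The ranges overlapped. KO minus WT was 0.019 on the log2 scale (95% interval -0.20 to 0.24, adjusted p = 0.891). In NO it had 2.76, 2.57 and 0.799 CPM in HEK WT and 1.75, 1.14 and 2.52 in HEK UL1 KO, with a difference of -0.26 (interval -1.10 to 0.58, adjusted p = 0.759). Replicate 3 of HEK WT was the lowest of the 6, and without it the difference was -0.69.

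NEFM, the medium chain, was the most abundant member in HEK WT. In CN it had 481, 497 and 273 counts in HEK WT (7.30, 7.52 and 4.58 CPM) and 249, 236 and 228 in HEK UL1 KO (4.17, 3.86 and 4.63 CPM). Replicate 3 of HEK WT lay at the level of the knockout, so that the groups overlapped. NEFM fell by 0.54 on the log2 scale (standard error 0.182, adjusted p = 0.037). The call was lost when any 1 of the other 5 CN libraries was left out (adjusted p from 0.0571 to 0.117), with total counts (0.311), with 12 libraries in one fit (0.276), with at least 10 counts in every library (0.0683) and under a replicate block (0.0887). Without replicate 3 of HEK WT the adjusted p was 0.000129. In NO, NEFM had 5.62, 7.30 and 1.47 CPM in HEK WT and 2.14, 3.02 and 2.52 in HEK UL1 KO. The difference there was -0.98 (interval -1.87 to -0.085, adjusted p = 0.27), and -1.45 without replicate 3 of HEK WT (adjusted p = 0.00183).

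NEFH, the heavy chain, was scarce in both lines. It had 5 to 17 counts per library in CN of HEK WT and 5 to 12 in CN of HEK UL1 KO, or 0.179 ± 0.0880 and 0.135 ± 0.0606 CPM (SD, n = 3 each). The libraries of the genotypes were mixed in both fractions. KO minus WT was -0.34 in CN (interval -1.49 to 0.80, adjusted p = 0.621) and 0.10 in NO (interval -0.80 to 1.00, adjusted p = 0.919), or 0.47 without replicate 3 of HEK WT. At 5 to 17 counts per library, the interval in CN spans a 2-fold fall.

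PRPH was the scarcest member in CN of HEK WT, with 5, 5 and 3 counts (0.0759, 0.0757 and 0.0503 CPM). In CN of HEK UL1 KO it had 16, 10 and 15 counts (0.268, 0.164 and 0.304 CPM). Every HEK UL1 KO library was above every HEK WT library, and 52.8% of all genes tested in CN did not overlap. The listed markers of other cell types spanned 0.0258 (CD68) to 0.751 CPM (VWF) in CN of HEK WT. In CN of HEK UL1 KO they spanned 0.128 (CD68) to 1.74 (MBP). PRPH counts this low were thus not told apart from background. PRPH rose by 1.89 on the log2 scale (standard error 0.454, interval 0.89 to 2.89, adjusted p = 0.00779). In NO it had 5, 4 and 8 counts in HEK WT and 23, 12 and 8 in HEK UL1 KO, and the difference of 0.77 did not pass (interval -0.26 to 1.80, adjusted p = 0.443). The whole of PRPH lies within the noncoding gene TROAP-AS1, and the strand setting of the counting is not given in the sources used here, so reads of the genes may not be told apart. TROAP-AS1 itself differed by 0.14 in CN (adjusted p = 0.778).

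NES rose in CN of HEK UL1 KO. It had 34, 27 and 28 counts in CN of HEK WT (0.516, 0.409 and 0.470 CPM) and 110, 115 and 84 in CN of HEK UL1 KO (1.84, 1.88 and 1.70 CPM). The groups did not overlap, which held for 52.8% of all genes tested in CN, and the spread within each was small. The means were 0.465 ± 0.0539 and 1.81 ± 0.0923 CPM (SD, n = 3 each). The fit of the CN libraries, with its own scaling, gave a 4.11-fold rise, which is 2.04 on the log2 scale (interval 1.65 to 2.43, adjusted p = 1.47e-05). In NO, NES had 29, 18 and 44 counts in HEK WT (0.572, 0.420 and 0.606 CPM) and 150, 60 and 77 in HEK UL1 KO (1.15, 1.08 and 1.49 CPM). The groups did not overlap there either, as for 20% of all genes tested in NO. The NES difference was 1.14 (interval 0.50 to 1.79, adjusted p = 0.0851). It passed with DESeq2 (0.0447), with all 12 libraries in one fit (0.00916) and without replicate 3 of HEK WT (0.0103).

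**Figure D2:**
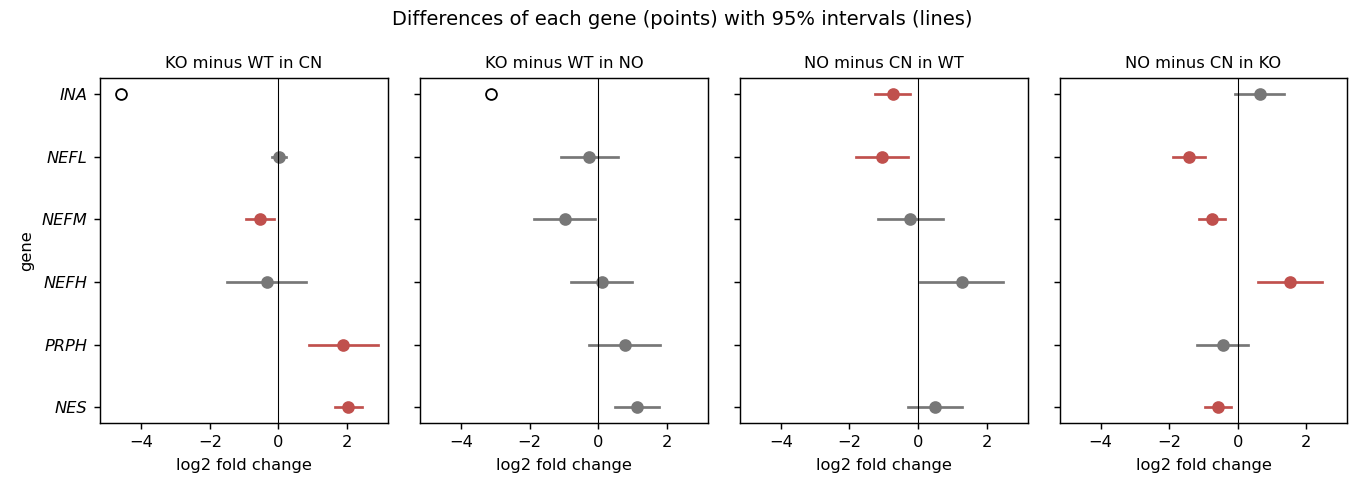
Log2 fold change of each gene (points) with its 95% interval (lines) in the 4 comparisons. Red marks an adjusted p under 0.05 and grey a higher one, open circles mark INA in the contrasts that chose it, where no interval is drawn, and PRPH was not tested between the fractions of HEK WT. In CN, INA sits at -4.60, NEFL at 0.019 and NES at 2.04.

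Differences between HEK UL1 KO and HEK WT moved with the level of a gene across the whole table. In CN, genes with a mean under 20 counts per library, where PRPH and NEFH lie, had a median log2 fold change of 0.45, with 12.5% called higher and 2.66% lower. Genes with 20 to 100 counts, where NES lies, had a median of 0.22, with 18.6% called higher and 8.64% lower. Genes with 100 to 1000 counts, where INA, NEFL and NEFM lie, had a median of -0.16, with 16.9% called higher and 35.2% lower. Genes with 1000 or more counts had a median of -0.32, with 7.83% called higher and 59.5% lower. VIM, LMNB1, MAP1B, DST, HDAC2 and the alpha-tubulin genes, described below, lie at that level. The part of this trend in the member values was not tested. The values of NES and PRPH were larger than the medians of their level, and that of NEFM was lower than its own.

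Whether the knockout difference itself differed between NO and CN was tested as an interaction over the 12 libraries. By edgeR, 0 of the 5 genes other than INA were called, beside 43 of 37806 genes in all (0.114%, of which 0.0846% higher and 0.0291% lower). At an unadjusted p under 0.05 it was 1 of the 5, beside 3.32% of all genes. This was NES, whose interaction was -0.76 on the log2 scale, a smaller difference in NO, and DESeq2 called 0 of the 5 (0.222% of all genes). For INA the interaction was 1.65, a smaller fall in NO, which is a description. INA counts in HEK UL1 KO were not told apart from background, so the size of the INA fall in each fraction is uncertain.

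The fractions were then compared within each line. NO RNA is enriched in nucleolar RNA, and mature mRNA is found mainly in CN. In HEK WT, 2 of 5 members tested were lower in NO, INA and NEFL, beside 20.9% of all genes lower and 31.9% higher (52.8% called in all). Both have 100 to 1000 counts per library on average, where 38.8% of genes were lower, with a median of -0.40. NEFL was at -1.05 on the log2 scale, lower in NO (standard error 0.342, adjusted p = 0.027), and missed the threshold without replicate 1 of HEK WT in CN (0.0514), with total counts (0.0863) and with at least 10 counts in every library (0.0795). Without replicate 3 of HEK WT in NO, NEFL was at -0.68 (0.00764), NEFM at 0.18 (0.555), NES at 0.30 (0.499) and NEFH at 0.73 (0.318). With all 6 libraries, NEFM differed by -0.23 (adjusted p = 0.674), NES by 0.49 (0.268) and NEFH by 1.27 (0.0736, or 0.0459 without replicate 2 of HEK WT in NO), and PRPH did not pass the filter on low counts. The interval for NEFM, from -1.17 to 0.72, does not show that it was equal in both fractions.

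In HEK UL1 KO, 4 of the 6 members passed, beside 76.3% of all genes (40.7% higher and 35.6% lower in NO). On the log2 scale and as NO minus CN, NEFL was at -1.42 (adjusted p = 0.000192), NEFM at -0.74 (0.00257) and NES at -0.58 (0.00904). NEFL and NEFM have 100 to 1000 counts per library on average. At that level 63.6% of genes were lower in NO, with a median of -0.64, close to the value of NEFM. NES lies at the upper end of 20 to 100 counts, where 21% were lower and the median was 0.69. NEFH was higher in NO by 1.52 (adjusted p = 0.00701), which is close to the median of 1.39 of all genes with under 20 counts in this contrast. For PRPH the value was -0.44 (interval -1.19 to 0.31, adjusted p = 0.254). With total counts in place of TMM, a scaling that moved the median of all genes from 0.032 to 0.79, NES turned to 0.17 and NEFM to -0.011 (adjusted p = 0.967). With at least 10 counts in every library, NEFM (0.131) and NES (0.435) lost the call, as did NES without replicate 1 of HEK UL1 KO in NO (0.0536) and NEFM with 12 libraries in one fit (0.0901).

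Per kilobase of transcript, the members can be compared with each other. In CN of HEK WT, NEFM stood at 1.98 ± 0.501 CPM per kb (SD, n = 3), NEFL at 1.37 ± 0.0818, INA at 1.13 ± 0.223, NES at 0.0835 ± 0.00969, NEFH at 0.0473 ± 0.0232 and PRPH at 0.0374 ± 0.00816. The ranges of NEFM and NEFL overlapped, as did those of NEFL and INA and those of NEFH and PRPH. The step from INA down to NES, and that from NES to NEFH, lay outside the spread. INA was thus among the 3 most abundant of these 6 genes in the wild-type line.

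In CN of HEK UL1 KO, the order was NEFL (1.31 ± 0.0193), NEFM (1.29 ± 0.118), NES (0.325 ± 0.0166), PRPH (0.136 ± 0.0406), INA (0.0434 ± 0.00305) and NEFH (0.0355 ± 0.0160). Only NEFL with NEFM and INA with NEFH overlapped among neighbours in that order. The summed level of the 6 genes per kb was 4.64 ± 0.467 in HEK WT and 3.14 ± 0.151 in HEK UL1 KO in CN, and 2.85 ± 1.28 and 1.78 ± 0.164 in NO. INA made up 24.7 ± 6.76% of that sum in CN of HEK WT and 1.38 ± 0.0800% in HEK UL1 KO. NES went from 1.81 ± 0.259% to 10.4 ± 1.01% and PRPH from 0.799 ± 0.106% to 4.30 ± 1.11%. The share of NEFL went from 29.6 ± 1.46% to 41.8 ± 2.04% although its level did not pass a test, since shares of a sum depend on each other, and NEFM held 42.2 ± 7.30% and 41.0 ± 1.80%.

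In NO, the make-up moved the same way for INA, which was 22.1 ± 6.71% of the sum in HEK WT and 3.81 ± 1.09% in HEK UL1 KO. NES was at 4.28 ± 3.09% and 12.5 ± 1.41%. NEFM was the largest part in both lines, with 47.4 ± 13.7% and 43.95 ± 6.97%. Replicate 3 of HEK WT had the lowest sum of the 12 libraries (1.40 CPM per kb), and its INA share of 29.7% and NEFM share of 32.3% lay farthest from those of its group.

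**Figure D3:**
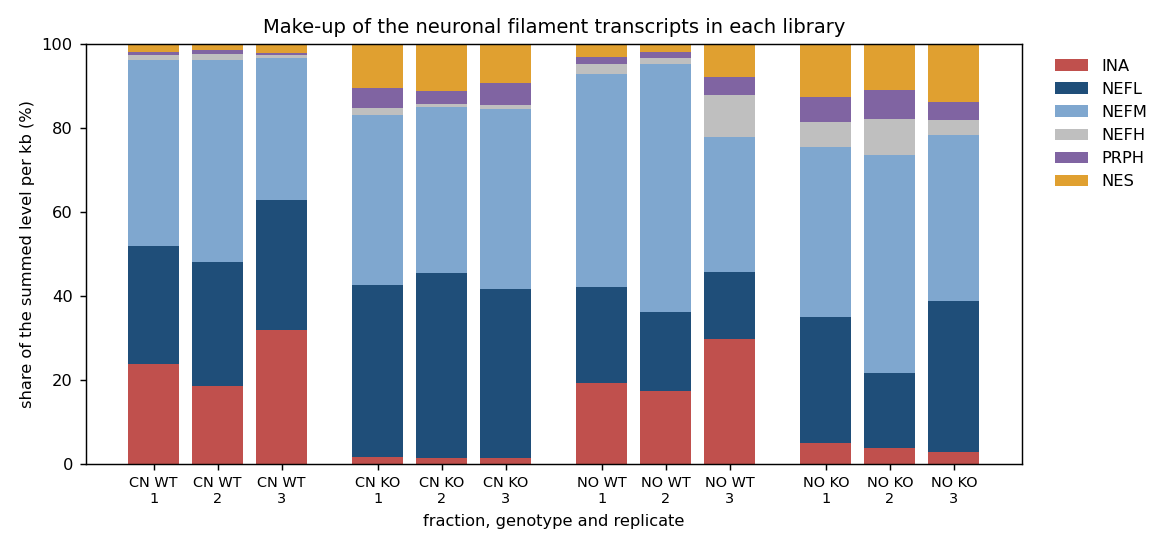
Share of each gene in the summed level of the 6 genes per kb, in percent, for each of the 12 libraries. INA takes between 17.3 and 31.8% in the HEK WT libraries and between 1.33 and 4.93% in the HEK UL1 KO libraries, and NES takes more in HEK UL1 KO than in HEK WT of the same fraction.

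The genes whose profile over the 12 libraries was most like that of INA were found by the root mean square difference of centred log2 CPM, among 16319 genes. They were TENM1, which encodes a large transmembrane teneurin of the nervous system (0.319), and the noncoding genes LINC01037 (0.436), LINC01036 (0.443) and LINC00470 (0.455) and LOC102723724 (0.486). TENM1 was far more abundant than INA, at 230 ± 41.5 CPM (SD, n = 3) in CN of HEK WT and 11.3 ± 0.129 in HEK UL1 KO, with 132 ± 55.9 and 17.0 ± 1.21 in NO. Its KO minus WT value in CN was -4.26, beside -4.60 for LINC01037, -4.80 for LINC01036, -5.01 for LINC00470 and -3.80 for LOC102723724. These genes were picked for being like INA, so their values are a description. All 5 were still counted in HEK UL1 KO, but at unlike levels. TENM1 held 553 to 694 counts per CN library there. LINC01037 held 9 to 12 (0.197 CPM), near the level at which INA was not told apart from background.

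The nearest protein-coding genes on either side of INA were also lower, but by far less. Of 6 tested in CN, 5 fell and 0 rose, with a median of -0.55, where 22.3% of all genes fell. The 5 that fell had between 100 and 1000 counts per library on average, and 35.2% of genes at that level fell, with a median of -0.16. PCGF6, a Polycomb group RING finger gene on the minus strand whose nearer end lies 12450 bases beyond INA, fell by 0.82 on the log2 scale (adjusted p = 6.83e-05). Its means were 12.6 ± 0.437 CPM in HEK WT and 6.75 ± 0.765 in HEK UL1 KO (SD, n = 3 each). CNNM2, a magnesium transport gene, fell by 0.65, ATP5MK, a small subunit of ATP synthase, by 0.59, TAF5, a subunit of the transcription factor TFIID, by 0.50, and NT5C2, a nucleotidase, by 0.43. RPEL1, 29122 bases away on the other side, was at -0.27 and did not pass. These neighbours and gaps follow RefSeq. In GENCODE release 44 a longer NT5C2, on the minus strand from 103087185 to 103277605, reaches past the INA start, so that without strand reads at this end of the genes may not be told apart. Within 1 Mb of INA, 34 genes were tested in CN, 12 of them fell and 1 rose, and their values ranged from -0.82 to 0.47 with a median of -0.23. For comparison, of 20 neighbours of the other members, 2 rose and 5 fell, with a median of 0.0025 beside 0.038 over all genes. Those that fell included NF2, beside NEFH, and the alpha-tubulin genes TUBA1A, TUBA1B and TUBA1C, beside PRPH, whose near-identical sequences share reads.

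**Figure D4:**
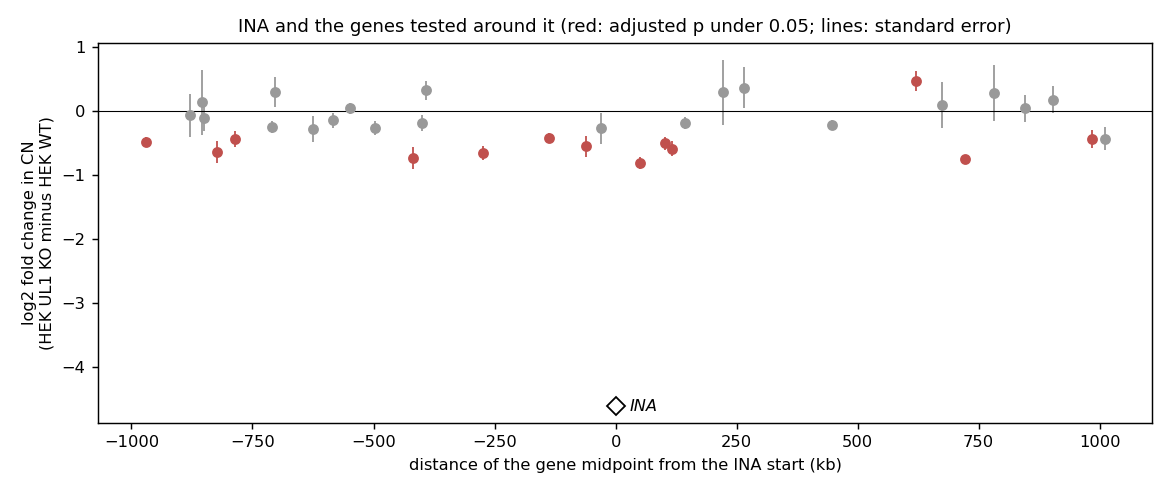
Log2 fold change in CN (HEK UL1 KO minus HEK WT) of INA (diamond) and of the 34 genes tested within 1 Mb of it, by the distance of the gene midpoint from the INA start in kb. Lines are standard errors, and red marks an adjusted p under 0.05. INA at -4.60 lies far below the range of its surroundings, -0.82 to 0.47.

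Genes that work with these filaments were described from lists. Of 10 other intermediate filament genes tested in CN, 4 rose and 2 fell (median 0.42), beside 15.6 and 22.3% of all genes. Vimentin (VIM), the filament of mesenchymal cells and the usual partner of nestin, fell by 1.47 on the log2 scale (adjusted p = 9.16e-06). Its means were 41.1 ± 8.18 CPM in HEK WT and 13.9 ± 1.26 in HEK UL1 KO (SD, n = 3 each). Synemin (SYNM), a large linker filament, rose by 1.56 (adjusted p = 2.45e-05), and the keratin pair of simple epithelia, KRT8 and KRT18, rose by 2.30 (3.39e-06) and 1.28 (0.000545). KRT8 and KRT18 have many processed pseudogenes, so their counts can be split by the counting and are uncertain. The lamin gene LMNB1 fell by 0.67, and LMNA, whose libraries overlapped, rose by 0.54. In NO, VIM was the 1 gene of 14 that edgeR called, lower by 1.60 (adjusted p = 0.0246), beside 0.939% of all genes. KRT8 was at 1.04 (adjusted p = 0.0715). At an unadjusted p under 0.05 there were 5 of the 14, beside 16% of all genes, and DESeq2 called 2 (VIM and KRT8), beside 3.15%. Without replicate 3 of HEK WT, 5 rose and 2 fell, beside 9.87% of all genes higher and 15.3% lower.

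Of 16 linkers, motors, kinases and turnover factors tested in CN, 5 rose and 3 fell, with a median of 0.16. Plectin (PLEC), which ties filaments to other cytoskeletal structures, rose by 0.86, DST, a related giant linker, by 0.35 and TRIM2, a ubiquitin ligase of neurofilament light chain, by 0.62. Of 20 other neuronal genes tested, 5 rose and 3 fell, with a median of 0.25, and like the linkers they are to be read beside 15.6% of all genes higher and 22.3% lower. The microtubule gene MAP1B fell by 0.73 and the RNA-binding gene ELAVL2 by 0.67, while UCHL1 rose by 0.51 and tau (MAPT) by 0.39.

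Of 15 regulators of neuronal genes tested in CN, 2 rose and 5 fell, with a median of -0.070. Beside them, 15.6% of all genes tested in CN rose and 22.3% fell. HDAC1, a histone deacetylase of corepressor complexes, fell by 0.99, its relative HDAC2 by 0.35 and the histone methyltransferase gene EHMT1 by 0.47, while GATA3, a transcription factor of sympathetic neurons and of other lineages, rose by 1.19. HDAC2 has 1000 or more counts per library on average, where 59.5% of genes fell, with a median of -0.32. REST, a repressor that keeps neuronal genes off in other cells, fell by 0.31 (adjusted p = 0.00909). Its means were 14.1 ± 1.03 CPM in HEK WT and 10.7 ± 0.533 in HEK UL1 KO (SD, n = 3 each). In NO, edgeR called 0 of 17 linkers, 0 of 21 neuronal genes, 0 of 17 regulators and 0 of 6 neighbours of INA. At an unadjusted p under 0.05 there were 3, 2, 2 and 2, and DESeq2 called 0, 0, 1 (HDAC1) and 1 (PCGF6), where 16 and 3.15% of all genes passed these rules. Without replicate 3 of HEK WT, 1 linker rose and 1 fell, 3 neuronal genes rose and 2 fell, 1 regulator rose and 3 fell, and 3 neighbours of INA fell, beside 9.87% of all genes higher and 15.3% lower. Of 7 markers of other cell types tested in CN, 4 rose and 0 fell, MBP by 1.56 and VWF by 0.87 among them. Over all genes tested in CN, 15.6% were higher and 22.3% lower. At 20 to 100 counts per library, where MBP and VWF lie, it was 18.6 and 8.64%. The summed level of the 10 listed was 2.10 to 3.86 CPM in HEK WT and 5.62 to 6.80 in HEK UL1 KO, with none at 0 in every library of a group. These low-level markers moved in the same direction as NES and PRPH, and their part in those values was not tested.

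**Figure D5:**
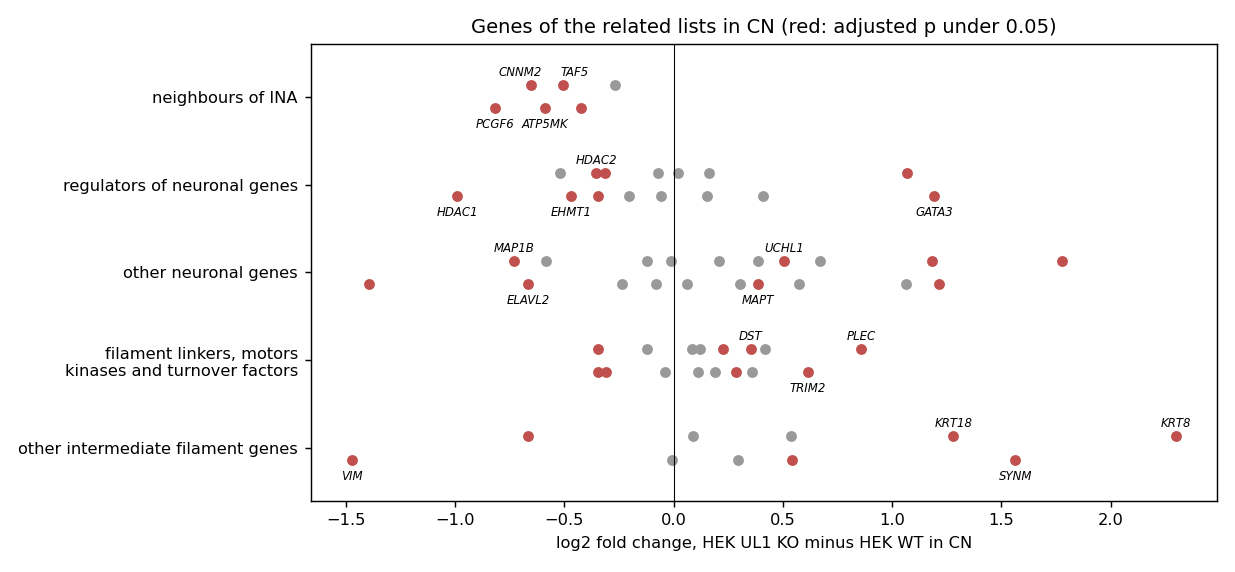
Log2 fold change in CN (HEK UL1 KO minus HEK WT) of each tested gene of 5 lists, 1 row per list, with red for an adjusted p under 0.05 and names for genes with the largest changes among those called without overlap and with a mean of at least 50 counts per CN library. The neighbours of INA all lie below 0, while the other lists spread to both sides, from VIM at -1.47 to KRT8 at 2.30.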

How the data were processed

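The authors trimmed single reads of 75 bases with Cutadapt 3.7, aligned them to GRCh38 with STAR 2.7.8, allowing up to 20 alignments per read, and counted genes with featureCounts. They deposited raw counts per gene for 61163 genes, 1 table per fraction. Counting options, strand setting and annotation release are not given in the sources used here. All columns matched a library by name.

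From these counts, the genotypes were compared in each fraction, the fractions in each line, and the interaction of both over 12 libraries, with edgeR 4.0.16 (quasi-likelihood F test, TMM, filterByExpr with a minimum count of 10, Benjamini-Hochberg over all genes tested, called under 0.05) in R 4.3.3. The procedure was tested on simulated data, with changes set only in genes with a mean of at least 50 counts. Every gene had the same spread there, so genes as scarce as PRPH and NEFH were not covered. P-values measure the spread between the libraries, called biological triplicates in the labels. Levels per kb use the Ensembl canonical transcript of GENCODE release 44.

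The members and lists were chosen with earlier results of these data known. Named genes are the members, the 3 nearest protein-coding genes on each side of INA, the 5 genes most like INA with a mean of at least 50 counts per CN library of HEK WT, and up to 4 genes per list with the largest change in CN among those called, without overlap and with at least 50 counts. Some genes of the lists are counted but not reported by name here. LMNA, LMNB1, REST and TROAP-AS1 were named after their values were seen, as were the neighbours of the other members, and the comparison by count level, the window around INA and the CpG and motif counts were added then.

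Alternatives were DESeq2 1.42.0, total counts, TMM without rRNA genes, no filter, at least 10 counts in every library, a replicate block, all 12 libraries in one fit, and leaving out each library.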

Additional observations from a re-analysis of the deposited data

How the results depend on the processing

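Among single-gene values, leaving out INA in the contrasts that chose it, 142 results under the other settings kept direction and side of the threshold, 13 lost a call, 3 gained one and 7 changed sign; with a library left out these were 162, 9, 3 and 11. The rise of NES and of PRPH in CN kept its call under every setting that tested it (PRPH was filtered out at 10 counts in every library).

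Against 327 genes called in NO, DESeq2 gave 1099, total counts 10, no filter 1190, 10 counts in every library 143 and all 12 libraries in one fit 1745. The members called there went from 0 to 1 with DESeq2 and in the fit of 12. Against 10324 in CN, it was 5430 with total counts (3700 higher and 1730 lower, in place of 4254 and 6070), and the fit of 12 gave 4215. The members called went from 3 to 1 at 10 counts in every library. Against 15494 between the fractions of HEK WT, total counts gave 7011 (6387 higher), 10 counts in every library 8759 and the fit of 12 24943, and the 2 members called went to 0 with total counts and at 10 counts in every library. In HEK UL1 KO, 10 counts in every library gave 13159 genes in place of 26287 and 1 member in place of 4. For the interaction (43 genes), DESeq2 gave 84, total counts 0 (461 at an unadjusted p under 0.05), no filter 104 and 10 counts in every library 20. Fewer genes were tested under the stricter filter; for the other settings the cause was not tested.

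Signs changed with total counts for NEFL in NO (0.40), PRPH (0.32) and NES (0.17) between the fractions of HEK UL1 KO and the interactions of NEFL (0.19) and NEFM (0.089), and for NEFL in CN without a filter (-0.014) and in the fit of 12 (-0.062). Total counts moved the median of all genes to 0.40 in NO, 0.24 in CN, 0.37 between the fractions of HEK WT and 0.79 in HEK UL1 KO.

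Replicate numbers did not pair the libraries: same-numbered deviations correlated at -0.447 to -0.0328, and no library correlated best with its own number. With the number as a block, 224 genes were called in NO, 8438 in CN, 9577 between the fractions of HEK WT, 24639 in HEK UL1 KO and 30 in the interaction, with 0, 2, 1, 4 and 0 members. NEFM in CN was at 0.0887 (adjusted p) and INA between the fractions of HEK WT at 0.0747.

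With 1 library left out, genes called ranged from 123 to 9133 in NO (9133 without replicate 3 of HEK WT, where members went to 2), 7286 to 10301 in CN, 12502 to 21118 and 23358 to 28533 between the fractions of WT and of KO cells, and 25 to 57 in the interaction. Members called ranged from 0 to 2, 2 to 3, 0 to 3, 3 to 4 and 0 to 0. Signs changed for NEFL (-0.69 to 0.083) and NEFH (-0.23 to 0.47) in NO, NEFL (-0.00048 to 0.064) and NEFH (-0.78 to 0.019) in CN, NEFM between the fractions of HEK WT (-0.76 to 0.18), and the interactions of NEFL (-0.52 to 0.19) and NEFM (-0.74 to 0.15). Few counts limit PRPH and NEFH.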
